A study of Mus musculus with 10 samples.

Results

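The sphingosine-1-phosphate (S1P) axis was followed through 7 genes: the kinases Sphk1 and Sphk2, the exporter Spns2, the receptors S1pr1, S1pr2 and S1pr3, and the lyase Sgpl1. They were found by symbol among the 55385 genes that the deposited tables list, and all 7 were present. RNA was sequenced from liver endothelial cells of mice, in 5 libraries labelled Alk1-HEC-KO (genotype KO) and 5 libraries labelled Control (genotype WT). Per the labels' protocols, the non-parenchymal fraction of the liver was obtained with Nycodenz and the endothelial cells in it were taken out with anti-CD146 beads (CD146 is an endothelial surface protein). The labels do not give the deleted exons, the Cre line and its promoter, the age of the mice, or whether the 5 libraries of a group are 5 animals, and the p-values describe the spread among these libraries, which could be technical. Libraries held 23489494 to 23602771 estimated counts, so depth was nearly equal.

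S1P is a signalling lipid made inside cells by phosphorylation of sphingosine, which itself comes from ceramide. Endothelial cells release it through Spns2, it is carried in plasma by apolipoprotein M and albumin, and it acts on G protein-coupled receptors at the cell surface. In endothelium S1pr1 couples to the inhibitory G protein and tightens cell junctions, whereas S1pr2 also couples to the G12 family. Phosphatases return S1P to sphingosine, and the lyase Sgpl1 removes it for good.

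The targeted gene went against the label. Acvrl1 (ENSMUSG00000000530.16, chromosome 15, 101128522 to 101145336, plus strand, GRCm38), which encodes the BMP9 and BMP10 receptor ALK1, was at 239, 246, 250.2, 258 and 245 CPM (counts scaled to a common library total) in Alk1-HEC-KO libraries 1 to 5, and at 124.5, 125, 136, 114 and 135 CPM in Controls 1 to 5. It was higher in all 5 libraries labelled Alk1-HEC-KO (log2 fold change 0.96 ± 0.054 SE, edgeR quasi-likelihood test with Benjamini-Hochberg adjustment, adjusted p = 1.74e-07). With offsets for the mean transcript length in each library, the Acvrl1 log2 fold change was 0.84 (edgeR adjusted p = 1.25e-06). Counts per gene carry no exon detail. The group is therefore called the knockout-labelled libraries, and every direction below is that of these libraries against Controls.

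The cells carried endothelial markers. The summed level of 8 endothelial genes was 10200 to 10900 CPM in knockout-labelled libraries and 10100 to 11800 CPM in Controls, a sum that holds opposite calls, since Pecam1, Tie1 and Emcn rose and Kdr and Tek fell. The 6 sinusoidal endothelium genes summed to 12200 to 13800 CPM in knockout-labelled libraries and 17800 to 20300 CPM in Controls. Of these 6 genes 5 fell, beside 9.08% called lower over all genes tested. Hepatocyte genes summed to 576 to 1250 CPM in knockout-labelled libraries and 556 to 1760 CPM in Controls, and macrophage genes to 404 to 1020 CPM in knockout-labelled libraries and 441 to 1390 CPM in Controls. Albumin (Alb) and transferrin (Trf) make up most of the hepatocyte sum, and within that list Cyp2e1 fell, at 11.1 to 20.4 CPM in knockout-labelled libraries and 35.3 to 318 CPM in Controls (edgeR adjusted p = 0.00815). In such bulk samples fewer cells of a type and less RNA per cell cannot be told apart.

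The 7 genes moved in both directions. S1pr1 and Sphk1 rose, Spns2 and S1pr2 fell, and Sphk2, S1pr3 and Sgpl1 did not pass the test. Over all 15043 genes tested, 19.7% were called at an adjusted p under 0.05, 10.6% as higher and 9.08% as lower, beside which 2 of the 7 members were called higher and 2 lower. With library size alone 1968 genes were higher and 1024 lower, and with limma on log2(TPM + 1) 1840 higher and 685 lower, against 1593 and 1366 here. The median log2 fold change was 0.03 over the 7 members and 0 over all genes tested. The CPM ranges of the groups did not overlap for 4 members, S1pr1, Sphk1, Spns2 and S1pr3, against 15.4% of all genes tested. All 7 passed the filter on low counts. S1pr3, the lowest in counts of the receptors among them, was over the filter's threshold in 4 of 5 knockout-labelled libraries and in 5 of 5 Controls. The others were over it in all 10 libraries.

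**Figure D1:**
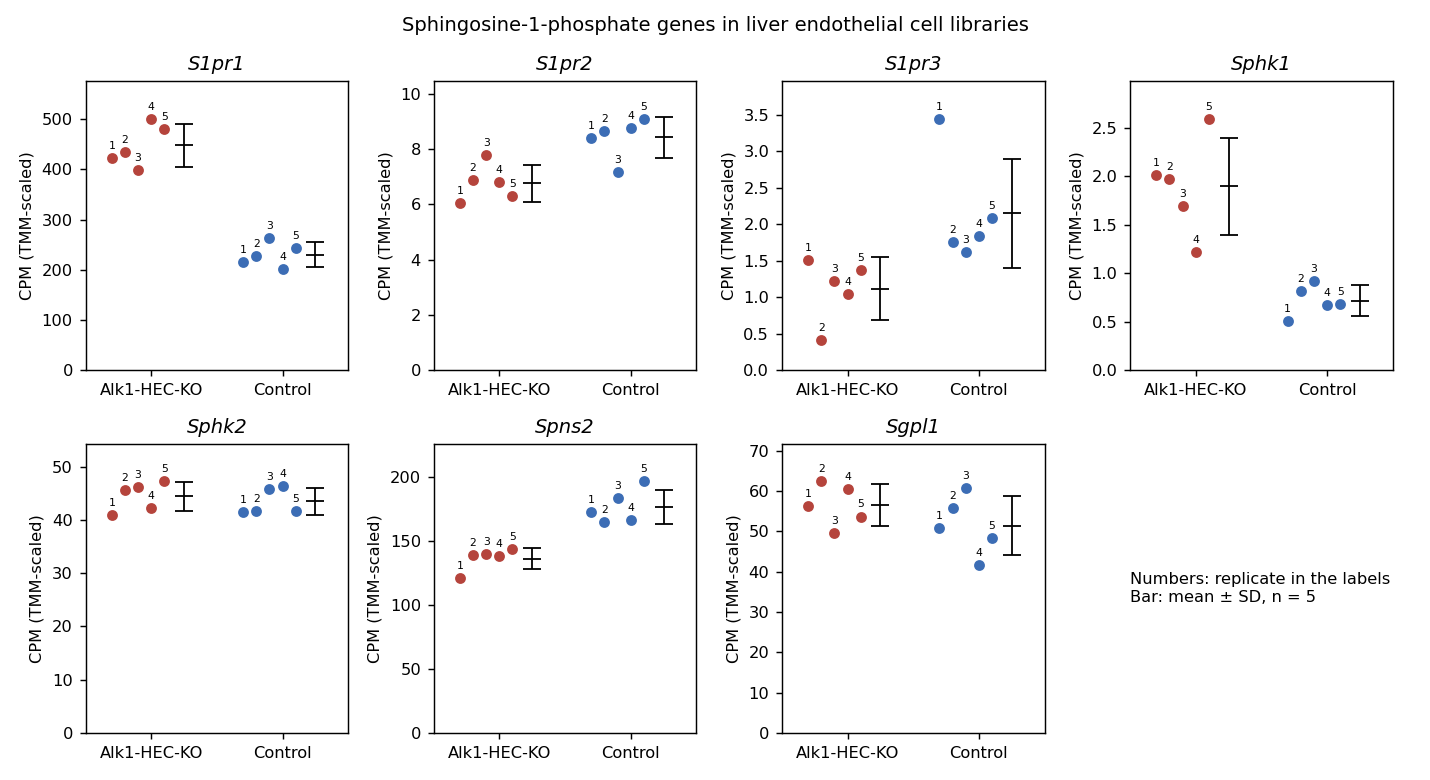
Level of each S1P gene in CPM (TMM-scaled library sizes, linear axis from 0) in the 5 knockout-labelled libraries (left of each panel, labelled Alk1-HEC-KO) and the 5 Controls (right). Points are libraries with their replicate numbers and bars are mean ± SD (n = 5); S1pr1, S1pr3, Sphk1 and Spns2 show no overlap, while S1pr2, Sphk2 and Sgpl1 overlap.

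Sphk1, the mostly cytosolic sphingosine kinase, rose at a low level. Sphk1 (ENSMUSG00000061878.15, chromosome 11, 116530925 to 116536674, plus strand) was at 2.015, 1.97, 1.69, 1.22 and 2.59 CPM in knockout-labelled libraries 1 to 5 and at 0.5045, 0.815, 0.916, 0.675 and 0.683 CPM in Controls 1 to 5. The lowest knockout-labelled library lay above the highest Control. The means were 1.90 ± 0.501 CPM in knockout-labelled libraries and 0.719 ± 0.156 CPM in Controls (SD, n = 5 each), 2.63-fold higher (log2 fold change 1.40 ± 0.24 SE, 95% interval 0.88 to 1.92; edgeR adjusted p = 0.00134). The exact two-sided permutation p over all assignments of the libraries was 0.0079, the smallest that 5 against 5 can give. Counts were low in both groups, 29 to 62 estimated counts in knockout-labelled libraries and 12 to 21 in Controls, so each level carries a counting error that is not small.

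Bile duct genes were also higher in knockout-labelled libraries. Of 5 such genes 4 rose (Epcam, Krt19, Sox9 and Spp1), beside 10.6% called higher over all genes tested. The sum of these 4 with Krt7 was 358 to 612 CPM in knockout-labelled libraries and 181 to 261 CPM in Controls. Most of that sum was Spp1, which averaged 429 CPM in knockout-labelled libraries and 197 CPM in Controls. Epcam, an epithelial adhesion protein, averaged 14.3 ± 3.03 CPM in knockout-labelled libraries and 6.48 ± 0.683 CPM in Controls (SD, n = 5 each). The genes whose pattern over the 10 libraries was most like that of Sphk1 were the small heat shock protein Hspb1, the epithelial keratin Krt8 and the epithelial cadherin Cdh1, with root mean square differences of centred log2 CPM of 0.18, 0.26 and 0.27. Their part in the Sphk1 result was not tested.

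The other kinase did not differ detectably. Sphk2 (ENSMUSG00000057342.15, chromosome 7, 45709467 to 45718002, minus strand), which is found in the nucleus and mitochondria as well as the cytosol, was at 40.9, 45.7, 46.1, 42.2 and 47.2 CPM in knockout-labelled libraries 1 to 5 and at 41.5, 41.7, 45.9, 46.4 and 41.8 CPM in Controls 1 to 5. The groups overlapped almost entirely. The log2 fold change was 0.03 ± 0.059 SE with a 95% interval from -0.10 to 0.16 (edgeR adjusted p = 0.759; exact two-sided permutation p = 0.59). On the TPM scale, which is per transcript length, Sphk2 was the higher of the kinases in every library. The ratio of Sphk1 to Sphk2 TPM was 0.0796 ± 0.0157 in knockout-labelled libraries and 0.0377 ± 0.0070 in Controls (SD, n = 5 each), and ran from 0.0584 to 0.0968 in knockout-labelled libraries and from 0.0300 to 0.0472 in Controls.

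Spns2, the transporter through which endothelial cells export S1P, fell. Spns2 (ENSMUSG00000040447.15, chromosome 11, 72451638 to 72489904, minus strand) was at 121.5, 139, 140.1, 138 and 143.5 CPM in knockout-labelled libraries 1 to 5 and at 173, 165, 184, 166.5 and 197 CPM in Controls 1 to 5. In CPM all 5 knockout-labelled libraries lay below the lowest Control, and library 1 was lowest. On the TPM scale the groups overlapped, at 68.0 to 87.7 in knockout-labelled libraries and 82.45 to 109.9 in Controls. The means were 136 ± 8.60 CPM in knockout-labelled libraries and 177 ± 13.3 CPM in Controls (SD, n = 5 each), 1.30-fold lower (log2 fold change -0.38 ± 0.063 SE, 95% interval -0.51 to -0.24; edgeR adjusted p = 0.00115; exact two-sided permutation p = 0.0079). Of the 6 sinusoidal genes above 5 fell as well, and their part in the Spns2 result was not tested.

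The receptor S1pr1 is the main S1P receptor of endothelium. S1pr1 (ENSMUSG00000045092.8, chromosome 3, 115710433 to 115715072, minus strand) was at 422, 435, 398, 501 and 481 CPM in knockout-labelled libraries 1 to 5 and at 215, 227, 264, 201 and 243 CPM in Controls 1 to 5. The lowest knockout-labelled library, number 3, was well above the highest Control, also number 3. The means were 447.5 ± 42.4 CPM in knockout-labelled libraries and 229.9 ± 24.5 CPM in Controls (SD, n = 5 each), a 1.95-fold rise (log2 fold change 0.96 ± 0.084 SE, 95% interval 0.78 to 1.14; edgeR adjusted p = 6.96e-06; exact two-sided permutation p = 0.0079). The tested gene with the pattern most like that of S1pr1 was Acvrl1 itself (root mean square difference 0.09), followed by the basement membrane collagen Col4a1 (0.12) and Rcsd1 (0.125). Col4a1 averaged 2515 CPM in knockout-labelled libraries and 1407 CPM in Controls, and Rcsd1 averaged 171 CPM in knockout-labelled libraries and 91.6 CPM in Controls.

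S1pr2 fell slightly in counts, with a call near the threshold that depended on the scale. S1pr2 (ENSMUSG00000043895.6, chromosome 9, 20962361 to 20976781, minus strand) was at 6.04, 6.86, 7.78, 6.81 and 6.32 CPM in knockout-labelled libraries 1 to 5 and at 8.41, 8.67, 7.15, 8.77 and 9.09 CPM in Controls 1 to 5. The groups overlapped, since knockout-labelled library 3 lay above Control 3. The log2 fold change was -0.32 ± 0.103 SE with a 95% interval from -0.54 to -0.09 (edgeR adjusted p = 0.0478; exact two-sided permutation p = 0.016). The call was lost when any of 8 of the 10 libraries was left out, with adjusted p of up to 0.102, and the sign turned on the TPM scale (log2 fold change 0.105 with limma on log2(TPM + 1), adjusted p = 0.698). The 8 libraries were knockout-labelled 1, 2, 4 and 5 and Controls 1, 2, 4 and 5, with log2 fold changes between -0.38 and -0.28 over all 10 omissions.

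The mean length assigned to S1pr2 transcripts was lower in 2 knockout-labelled libraries. The ratio of a gene's deposited count to its deposited TPM is proportional to the mean effective length of the transcripts that the reads were assigned to, and was scaled here so that the median gene of a library is at 1. For S1pr2 this relative length was 2.48, 2.605, 2.70, 1.46 and 1.35 in knockout-labelled libraries 1 to 5 and 2.325, 2.67, 2.705, 2.71 and 2.625 in Controls 1 to 5. Knockout-labelled libraries 4 and 5 stood apart, below all other libraries. These lengths rest on 144 to 184 estimated counts in knockout-labelled libraries and 164 to 213 in Controls. Whether the transcripts themselves differed in these 2 libraries was not tested. The S1pr2 annotation holds 4 transcripts, of which S1pr2-201 is 6394 bases long and the others are 379, 1587 and 419 bases long. The same 2 libraries had the highest S1pr2 TPM, 3.22 and 3.48, against 1.73, 1.92 and 2.04 TPM in knockout-labelled libraries 1 to 3 and 1.69 to 2.62 TPM in Controls. Across the group the difference in log2 length was -0.36 ± 0.211 SE and was not called (limma adjusted p = 1; unadjusted p = 0.125).

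**Figure D2:**
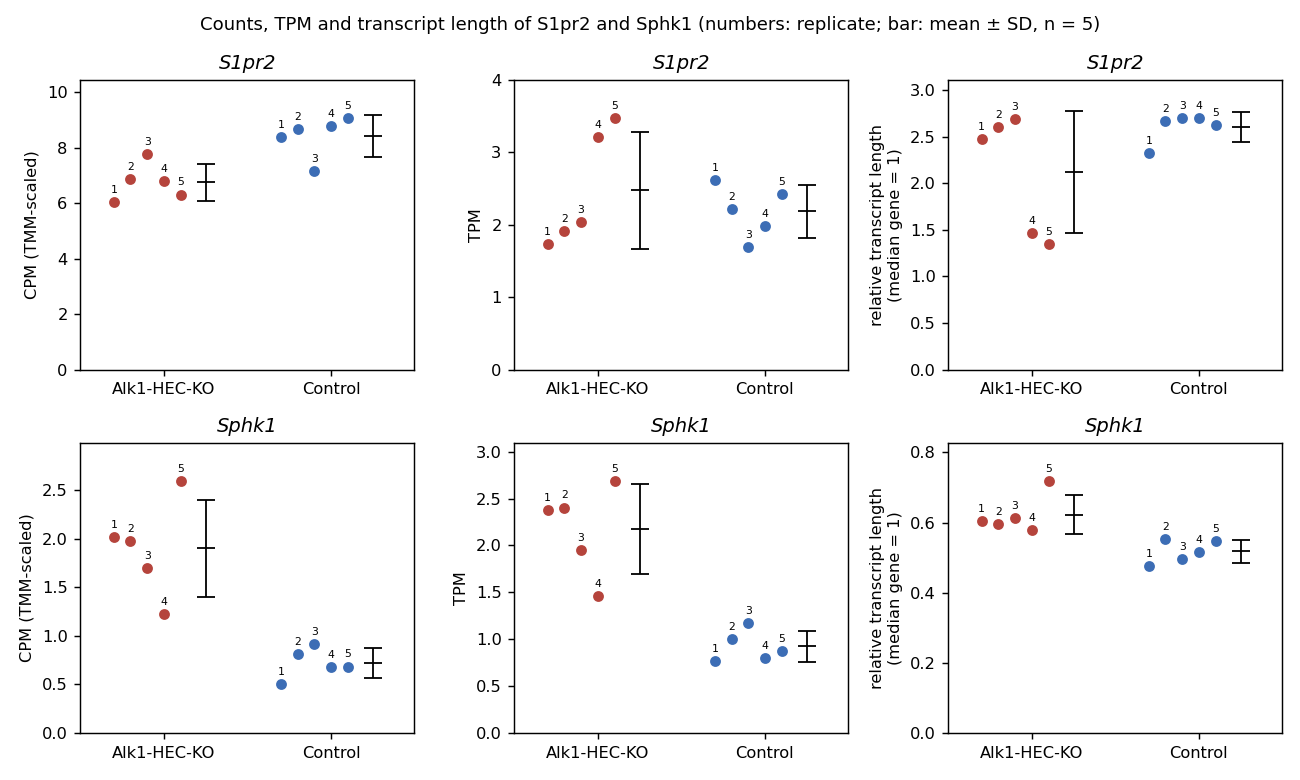
S1pr2 (upper row) and Sphk1 (lower row) as CPM, as TPM and as relative transcript length (count over TPM, median gene at 1), all on linear axes from 0, in knockout-labelled libraries (left, labelled Alk1-HEC-KO) and Controls (right). Points are libraries with replicate numbers and bars are mean ± SD (n = 5). Knockout-labelled libraries 4 and 5 have the highest S1pr2 TPM and the lowest S1pr2 length, and the difference in Sphk1 length was not called.

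The relative length of Sphk1, a gene annotated with 16 transcripts, was on average higher in knockout-labelled libraries. It was 0.604, 0.596, 0.612, 0.580 and 0.719 in knockout-labelled libraries 1 to 5 and 0.475, 0.554, 0.497, 0.517 and 0.547 in Controls 1 to 5. These values rest on 29 to 62 estimated counts in knockout-labelled libraries and 12 to 21 in Controls. The difference of 0.26 ± 0.066 (SE, log2 scale) was not called over all genes (limma adjusted p = 0.653, unadjusted p = 0.0032). Of 13618 genes tested for length, 0% were called by limma, and 712 had an unadjusted p under 0.05. Of the other members, S1pr1 and S1pr3 are annotated with 1 transcript each and differed by 0.00 on the log2 scale, and Sphk2, Spns2 and Sgpl1 differed by -0.02, 0.02 and 0.01.

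S1pr3, a receptor that couples to several G proteins and is also found on stellate and smooth muscle cells, had the lowest mean TPM of the receptors in both groups. S1pr3 (ENSMUSG00000067586.4, chromosome 13, 51408639 to 51422797, plus strand) was at 1.51, 0.411, 1.23, 1.05 and 1.38 CPM in knockout-labelled libraries 1 to 5 and at 3.45, 1.76, 1.61, 1.845 and 2.09 CPM in Controls 1 to 5. The CPM ranges did not overlap, and Control 1 stood above the other Controls. These levels rest on 10 to 36 estimated counts in knockout-labelled libraries and 37 to 82 in Controls. The log2 fold change was -0.95 ± 0.316 SE with a 95% interval from -1.63 to -0.26, and it missed the threshold (edgeR adjusted p = 0.0538; exact two-sided permutation p = 0.0079). It passed with DESeq2 (log2 fold change -0.95, adjusted p = 0.0293), with no filter on low counts (-0.96, adjusted p = 0.0326) and when knockout-labelled library 1 was left out (-1.085, adjusted p = 0.0475).

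The summed levels of stellate and of smooth muscle genes overlapped between the groups. A list of 8 stellate cell and fibroblast genes summed to 140.1 to 247 CPM in knockout-labelled libraries and 126 to 220 CPM in Controls, and 4 smooth muscle genes to 37.5 to 60.2 CPM in knockout-labelled libraries and 23.8 to 70.9 CPM in Controls. Within the stellate list Rgs5 was called higher (log2 fold change 0.75, edgeR adjusted p = 0.0199), and Pdgfrb averaged 3.86 CPM in knockout-labelled libraries and 2.36 CPM in Controls and was not called (edgeR adjusted p = 0.0928). Knockout-labelled library 2, with the lowest S1pr3 level, had the lowest sums of both lists in its group, 140.1 and 37.5 CPM. Control 1, with the highest S1pr3 level, had the highest smooth muscle sum, 70.9 CPM, and the lowest stellate sum, 126 CPM. Their part in the S1pr3 values was not tested.

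The remaining receptors of the family, which are found mainly on blood cells, did not pass the test. B cell genes summed to 11.5 to 33.7 CPM in knockout-labelled libraries and 9.72 to 17.0 CPM in Controls, and platelet genes to 12.5 to 21.2 CPM in knockout-labelled libraries and 12.5 to 19.7 CPM in Controls. S1pr4 averaged 18.5 ± 2.09 CPM in knockout-labelled libraries and 14.7 ± 2.90 CPM in Controls (SD, n = 5 each; log2 fold change 0.33 ± 0.133 SE, edgeR adjusted p = 0.105). S1pr5, a receptor of natural killer cells, ran from 1.06 to 3.08 CPM in knockout-labelled libraries and from 0.540 to 2.32 CPM in Controls (log2 fold change 0.31 ± 0.405 SE, edgeR adjusted p = 0.646). Its highest value, in knockout-labelled library 2, came with the highest sum of 8 T and natural killer cell genes, 80.1 CPM, against 33.5 to 49.5 CPM in the other knockout-labelled libraries and 34.8 to 48.7 CPM in Controls. The natural killer cell genes Gzma and Nkg7, at 46.3 and 14.7 CPM in that library, carried the sum, while the T cell genes Cd3d and Trbc2 fell between the groups (log2 fold changes -1.06 and -1.02, edgeR adjusted p = 0.0201 and 0.0257). Control 2 had the highest S1pr5 level of the Controls, 2.32 CPM, and their highest T and natural killer cell sum, 48.7 CPM. The part of these cells in the S1pr5 values was not tested. Without knockout-labelled library 2 the log2 fold change of S1pr5 was -0.11.

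S1pr1 made up most receptor transcript in every library. On the TPM scale its level was 257 ± 25.1 in knockout-labelled libraries and 123 ± 15.1 in Controls (SD, n = 5 each). S1pr4 came next with 13.8 ± 1.80 TPM in knockout-labelled libraries and 10.3 ± 2.02 TPM in Controls, then S1pr2 with 2.48 ± 0.807 TPM in knockout-labelled libraries and 2.19 ± 0.365 TPM in Controls. S1pr5 was at 1.09 ± 0.635 TPM in knockout-labelled libraries and 0.823 ± 0.454 TPM in Controls, and S1pr3 at 0.428 ± 0.166 TPM in knockout-labelled libraries and 0.782 ± 0.318 TPM in Controls. S1pr1 and S1pr4 lay above the receptors after them in all 10 libraries. S1pr5 exceeded S1pr2 in knockout-labelled library 2, and in Controls S1pr5 and S1pr3 did not differ beyond their spread. S1pr3 TPM overlapped between the groups, 0.160 to 0.573 in knockout-labelled libraries and 0.552 to 1.33 in Controls.

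As a share of the summed TPM of the 5 receptors, S1pr1 made up 93.5% ± 0.471 in knockout-labelled libraries and 89.7% ± 2.20 in Controls (SD, n = 5 each). The S1pr2 share was 0.890% ± 0.211 in knockout-labelled libraries and 1.60% ± 0.273 in Controls, a difference of -0.71 percentage points that became -1.88 with counts in place of TPM. That of S1pr3 was 0.157% ± 0.0646 in knockout-labelled libraries and 0.571% ± 0.225 in Controls. These shares are a description without a test, and each moves when S1pr1 moves. Control 3 had an S1pr1 share of 93.2%, within the range of the knockout-labelled libraries, 93.1 to 94.2%, and the other Controls had 87.5 to 90.2%.

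**Figure D3:**
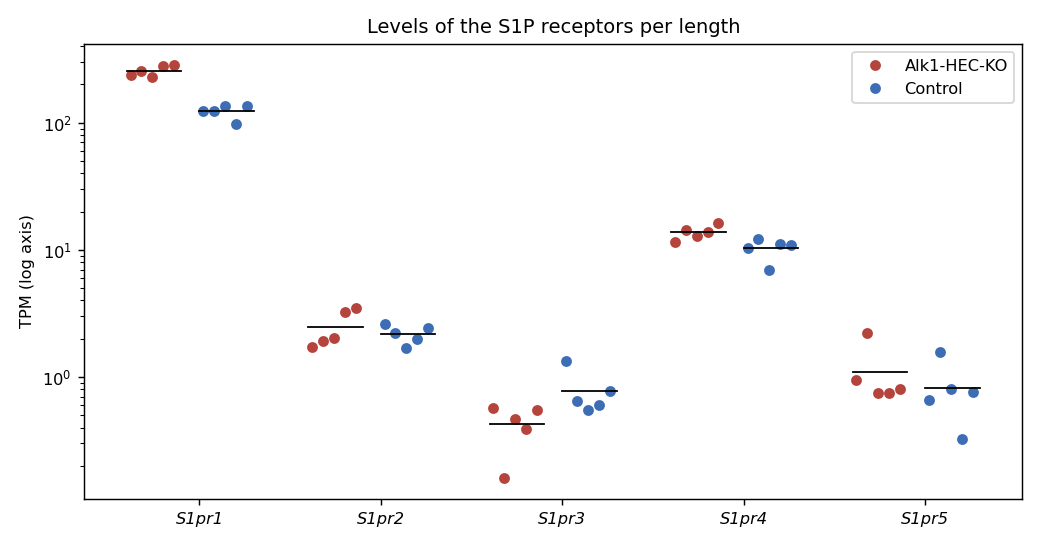
Level of the 5 S1P receptor genes in TPM (log axis) in knockout-labelled libraries (left of each pair, labelled Alk1-HEC-KO) and Controls (right). Points are libraries and bars are means (n = 5); S1pr1 is highest in every library, at 227 to 286 TPM in knockout-labelled libraries and 98.3 to 136 TPM in Controls.

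Sgpl1, the endoplasmic reticulum lyase that cleaves S1P, did not differ detectably. Sgpl1 (ENSMUSG00000020097.14, chromosome 10, 61098642 to 61147703, minus strand) was at 56.2, 62.4, 49.7, 60.6 and 53.7 CPM in knockout-labelled libraries 1 to 5 and at 50.8, 55.7, 60.7, 41.6 and 48.4 CPM in Controls 1 to 5. The groups overlapped. The log2 fold change was 0.14 ± 0.096 SE with a 95% interval from -0.07 to 0.35 (edgeR adjusted p = 0.364; exact two-sided permutation p = 0.24). It came closest to 0 without Controls 4 and 5, at 0.01.

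Ratios within a library set the members against each other on the TPM scale. S1pr1 over Spns2 was 3.28 ± 0.321 in knockout-labelled libraries and 1.28 ± 0.0941 in Controls (SD, n = 5 each), with 2.85 to 3.66 in knockout-labelled libraries and 1.19 to 1.42 in Controls. Spns2 over Sgpl1 was 3.21 ± 0.429 in knockout-labelled libraries and 4.62 ± 0.661 in Controls, with 2.84 to 3.78 in knockout-labelled libraries and 3.98 to 5.36 in Controls. Neither ratio overlapped between the groups, and each moves when either of its genes moves, as S1pr1 and Spns2 did above. These ratios too are a description without a test.

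**Figure D4:**
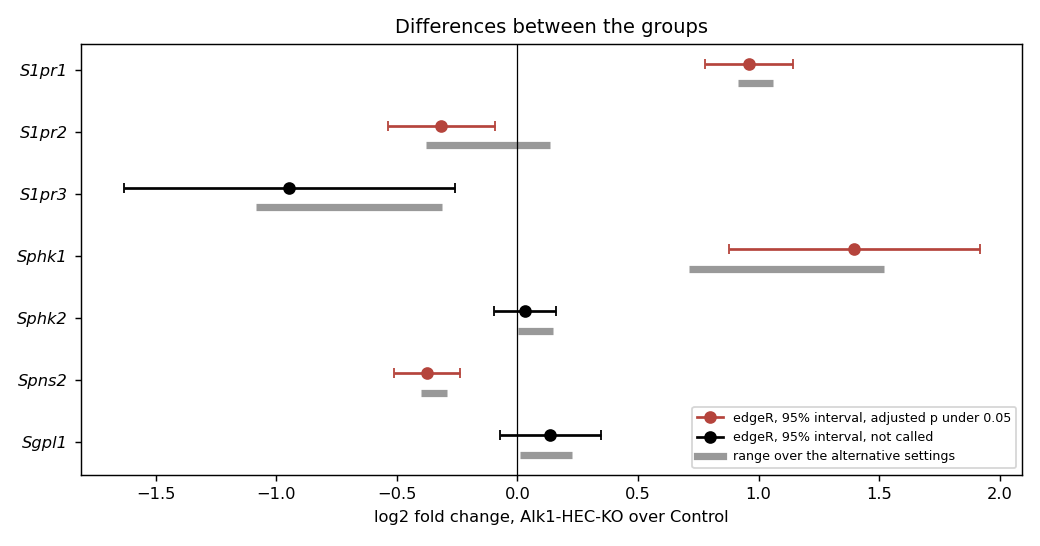
Log2 fold change of each S1P gene, knockout-labelled libraries (labelled Alk1-HEC-KO) over Controls, with 95% intervals (points and lines; red for an adjusted p under 0.05, black otherwise) and the range over the 20 alternative settings (grey bars). The S1pr1, Sphk1 and Spns2 ranges, 0.92 to 1.06, 0.71 to 1.52 and -0.40 to -0.29, stay on their side of 0, and the S1pr2 range, -0.38 to 0.135, crosses it.

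The sequences before the starts of 4 members are shown because ALK1 signals through SMAD proteins, whose DNA motifs are short and known. The GC-rich motif GGCGCC, read by SMAD1 and SMAD5, and the SMAD-binding motif CAGAC, on either strand, were searched in the 250 bases before each start that RefSeq lists on GRCm38.p6. Of the 7 members 6 had an entry, S1pr1 had none, and no window of a member held both motifs. Capitals mark a motif, letters run 5′ to 3′ on the gene's strand, and each sequence stops before the first base inside an annotated exon. The Sphk1 window (chr11:116532194-116532443, plus strand) and the Spns2 window (chr11:72475028-72475277, minus strand) precede internal starts and lie within the gene, the Sgpl1 window (chr10:61147704-61147934, minus strand) ends at the gene's start, and the S1pr3 window is chr13:51408368-51408617, plus strand.
Sphk1: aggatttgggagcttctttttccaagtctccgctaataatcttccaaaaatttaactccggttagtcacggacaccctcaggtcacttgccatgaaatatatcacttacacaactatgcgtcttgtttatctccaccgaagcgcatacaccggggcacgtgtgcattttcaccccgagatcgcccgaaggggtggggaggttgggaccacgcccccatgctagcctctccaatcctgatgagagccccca
Spns2: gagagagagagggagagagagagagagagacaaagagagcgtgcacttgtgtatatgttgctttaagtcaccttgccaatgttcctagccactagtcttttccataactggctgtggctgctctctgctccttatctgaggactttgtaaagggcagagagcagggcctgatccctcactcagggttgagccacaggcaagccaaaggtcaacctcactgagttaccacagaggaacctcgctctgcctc
Sgpl1: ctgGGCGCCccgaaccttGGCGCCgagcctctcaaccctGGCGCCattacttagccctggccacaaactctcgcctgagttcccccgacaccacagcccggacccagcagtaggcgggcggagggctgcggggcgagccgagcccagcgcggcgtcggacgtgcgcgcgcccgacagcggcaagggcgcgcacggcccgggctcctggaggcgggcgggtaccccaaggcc
S1pr3: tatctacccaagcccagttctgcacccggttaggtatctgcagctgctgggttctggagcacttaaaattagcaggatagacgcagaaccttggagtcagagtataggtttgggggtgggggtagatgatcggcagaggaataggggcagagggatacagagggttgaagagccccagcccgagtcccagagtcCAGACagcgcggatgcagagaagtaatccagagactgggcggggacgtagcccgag

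GGCGCC stood 3 times before Sgpl1 and once before the first start of Sphk2, and CAGAC stood once before S1pr3 and once before the most upstream start of Sphk1. Neither motif was found in the windows of S1pr2 and Spns2. Among 32851 such windows, 9.6% held GGCGCC and 42.2% held CAGAC. A match is a description of the letters in these windows.

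The genes nearest in pattern were also looked up for the other members. Nearest to Spns2 were Arfip1, Rbm43 and the BMP type II receptor Bmpr2, with root mean square differences of 0.05, 0.07 and 0.07. Bmpr2 averaged 332 CPM in knockout-labelled libraries and 426 CPM in Controls (log2 fold change -0.36, edgeR adjusted p = 0.00888). Nearest to S1pr2 were Fam222b, Sgk3 and Caml (0.06, 0.07 and 0.08), and nearest to Sphk2 were Mrpl43, Setd3 and Shc1 (0.04, 0.05 and 0.05). Nearest to Sgpl1 were Cmtm7, Baz1a and Nop56 (0.07, 0.08 and 0.08). The genes taken for S1pr3 were farther from it, with the retinoic acid receptor gene Rarb and Prrg3 both at 0.38. These distances were taken over the same 10 libraries and describe likeness of pattern only.

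Of 7 genes for S1P phosphatases, a transporter and a carrier, 1 rose, 2 fell and 4 did not pass (median log2 fold change 0.04), beside 10.6% higher and 9.08% lower over all genes tested. Plpp1, a cell surface lipid phosphate phosphatase, was at 786, 730.3, 817, 762 and 719 CPM in knockout-labelled libraries 1 to 5 and at 1189, 1484, 1256, 1591 and 1312 CPM in Controls 1 to 5. It fell by 0.84 ± 0.081 on the log2 scale (SE, edgeR adjusted p = 1.43e-05), with no overlap. Sgpp1, the S1P phosphatase of the endoplasmic reticulum, averaged 347 ± 18.8 CPM in knockout-labelled libraries and 494 ± 32.6 CPM in Controls (SD, n = 5 each) and fell by 0.51 ± 0.060 on the log2 scale (edgeR adjusted p = 7.25e-05). Its relative Sgpp2 rose, with means of 1.88 ± 0.450 CPM in knockout-labelled libraries and 0.799 ± 0.320 CPM in Controls (log2 fold change 1.22 ± 0.282 SE, edgeR adjusted p = 0.00864). Plpp3, Plpp2, the blood cell exporter Mfsd2b and the carrier Apom were not called. Apom, made mainly by hepatocytes, was at 0.977 ± 0.348 CPM in knockout-labelled libraries and 2.24 ± 1.46 CPM in Controls (edgeR adjusted p = 0.0692), and Control 2, with the highest hepatocyte sum, had the highest Apom level, 4.68 CPM. Cyp2e1 was at 233 CPM in Control 2 and higher, at 318 CPM, in Control 4, where Apom was at 1.89 CPM. The part of hepatocyte RNA in the Apom values was not tested.

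**Figure D5:**
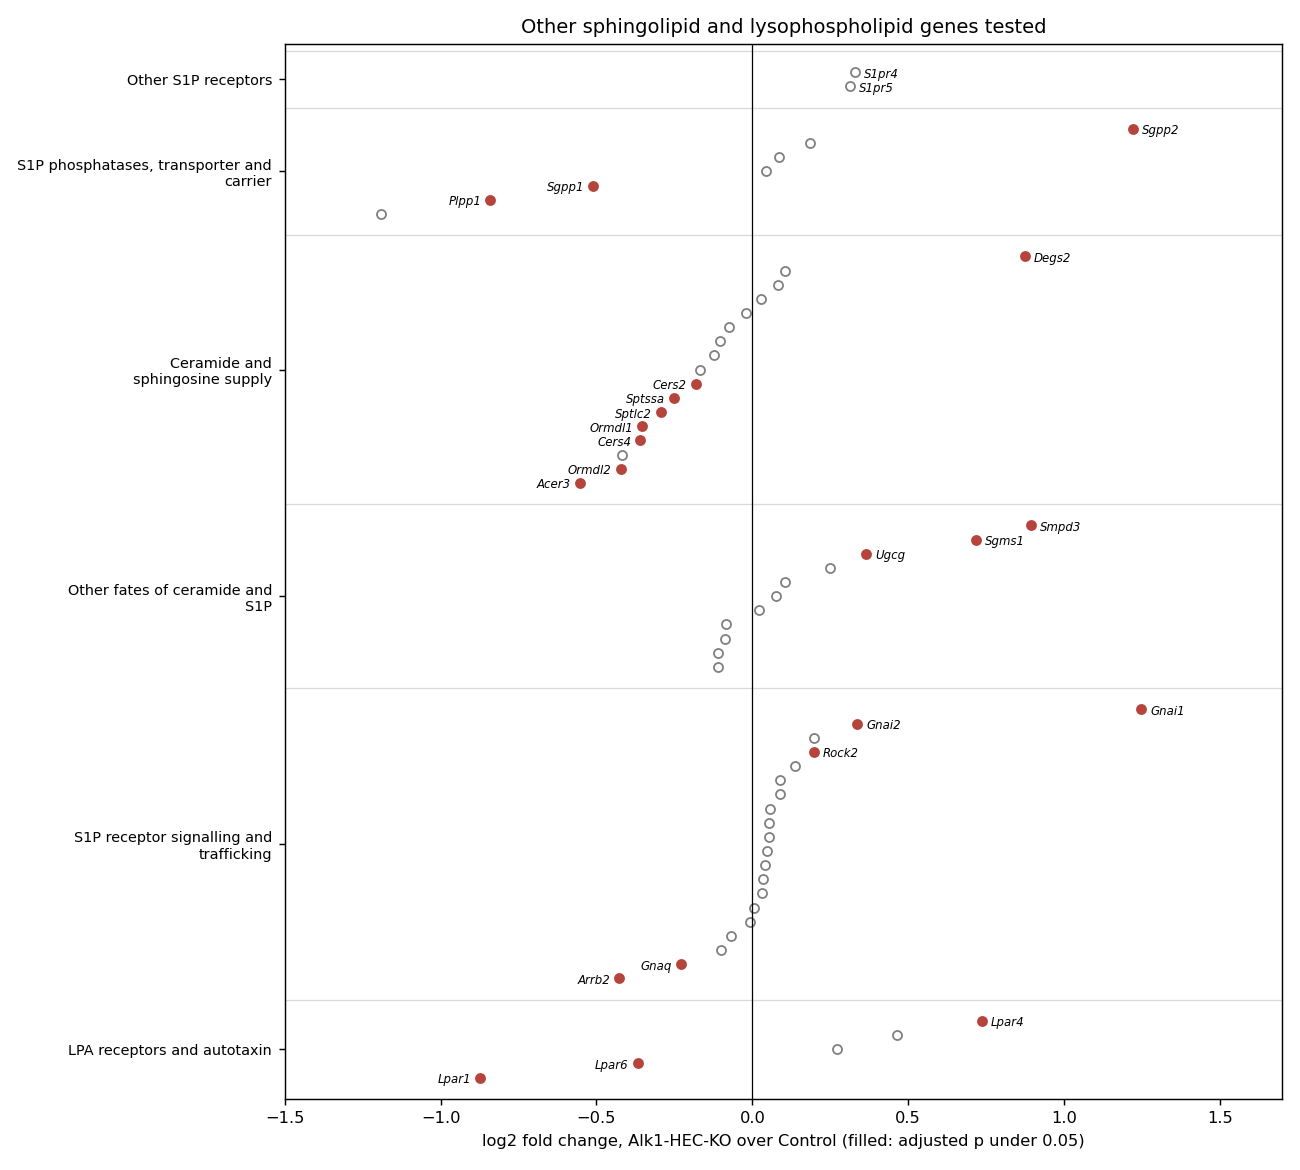
Log2 fold change, knockout-labelled libraries (labelled Alk1-HEC-KO) over Controls, of the 62 other S1P, sphingolipid and lysophosphatidic acid genes tested, by list, each point a gene (filled for an adjusted p under 0.05, named where described). Of them 9 were higher, 13 lower and 40 not called, from Apom at -1.19 to Gnai1 at 1.25, beside 10.6% higher and 9.08% lower over all genes tested.

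Of 22 genes that supply ceramide and sphingosine or regulate that supply, 17 were tested, and 7 fell, 1 rose and 9 did not pass. The median log2 fold change was -0.17, against 0 over all genes tested, of which 9.08% were lower and 10.6% higher. The list mixes enzymes with regulators such as Ormdl1 and Ormdl2, so these counts give no direction of supply. With limma on log2(TPM + 1) 2 of the 17 were called lower, and with transcript length offsets in edgeR 7 were. The alkaline ceramidase Acer3, which releases sphingosine, fell by 0.55 ± 0.079 (log2, SE; edgeR adjusted p = 3.33e-04), and the ceramide synthase Cers4 fell by 0.36 ± 0.045 (edgeR adjusted p = 1.16e-04). Cers4 ran from 79.1 to 88.9 CPM in knockout-labelled libraries and from 102 to 109.9 CPM in Controls. Also lower were the serine palmitoyltransferase subunit Sptlc2 (-0.29), its regulators Ormdl1 (-0.35) and Ormdl2 (-0.42), and Cers2 (-0.18), with edgeR adjusted p between 0.00351 and 0.0124. The calls of Cers4, Sptlc2, Ormdl1 and Cers2 were lost with limma on log2(TPM + 1), with log2 fold changes of -0.20, -0.20, -0.235 and -0.09. That of Sptssa was lost as well (-0.16, adjusted p = 0.208 by limma). With transcript length offsets in edgeR all of these stayed called, at -0.31, -0.30, -0.355, -0.19 and -0.26 in that order (adjusted p from 0.00162 to 0.0392). The Cers2 call was also lost with library size alone (-0.13, adjusted p = 0.0628 by edgeR). Sptssa (-0.25) and the rising Degs2 (0.87), named after their values were seen, were called at adjusted p of 0.0332 and 0.025 by edgeR, and each call was lost in 6 of the 10 fits that left out a library, with adjusted p of up to 0.0807 and 0.0714. For Sptssa those were knockout-labelled libraries 1, 2 and 5 and Controls 1, 4 and 5, with log2 fold changes of -0.32 to -0.225 over all omissions, and for Degs2 knockout-labelled libraries 2, 3 and 5 and Controls 1, 4 and 5, with 0.73 to 0.97. Degs2 was low, at 0.844 ± 0.222 CPM in knockout-labelled libraries and 0.458 ± 0.066 CPM in Controls (SD, n = 5 each). Its call was also lost with DESeq2 (adjusted p = 0.0604), and by edgeR with no filter (adjusted p = 0.0801) and without Controls 4 and 5 (adjusted p = 0.143). The Sptssa call was also lost by edgeR with library size alone (adjusted p = 0.0676) and without Controls 4 and 5 (adjusted p = 0.19). Acer1 and Sptlc3 were listed at 0 counts in all 10 libraries, and Sptssb, Cers1 and Cers3 did not exceed 0.329 CPM in any.

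Genes for other fates of ceramide and S1P gave 3 rises among 11 genes tested, no falls and 8 that did not pass, beside 10.6% higher and 9.08% lower over all genes tested. Sgms1, a sphingomyelin synthase, was at 156, 149, 161, 184 and 198 CPM in knockout-labelled libraries 1 to 5 and at 100.4, 113, 107, 87.0 and 108 CPM in Controls 1 to 5. It rose by 0.72 ± 0.090 on the log2 scale with no overlap (edgeR adjusted p = 1.16e-04). Smpd3, a neutral sphingomyelinase, rose by 0.89 ± 0.208 at a low level (3.96 ± 1.05 CPM in knockout-labelled libraries and 2.13 ± 0.412 CPM in Controls; edgeR adjusted p = 0.00923). The call of the glucosylceramide synthase Ugcg (log2 fold change 0.37, edgeR adjusted p = 0.0273) was lost when knockout-labelled library 1, 2, 3 or 4 or Control 1, 2, 4 or 5 was left out, with adjusted p of up to 0.0693 and log2 fold changes of 0.31 to 0.47 over all omissions.

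Downstream of the receptors, 3 of 20 genes rose, 2 fell and 15 did not pass, a share of calls near the 19.7% of all genes tested. Gnai1, an inhibitory G protein subunit of the kind to which S1pr1 couples, was at 9.695, 11.4, 10.4, 10.1 and 7.74 CPM in knockout-labelled libraries 1 to 5 and at 5.045, 3.905, 3.75, 3.87 and 4.18 CPM in Controls 1 to 5, a rise of 1.25 ± 0.127 on the log2 scale (edgeR adjusted p = 2.22e-05). Gnai2, another such subunit, averaged 1600 ± 69.0 CPM in knockout-labelled libraries and 1268 ± 106 CPM in Controls (log2 fold change 0.34 ± 0.065 SE, edgeR adjusted p = 0.00294). Gnai3 was not called (0.09 ± 0.045 SE, edgeR adjusted p = 0.191). Arrb2, a beta-arrestin that takes receptors off the surface, fell by 0.43 ± 0.055, and Gnaq by 0.23 on the log2 scale (edgeR adjusted p = 1.59e-04 and 0.00614). The Gnaq call was lost with limma on log2(TPM + 1) (-0.10, adjusted p = 0.419) and kept with transcript length offsets in edgeR (-0.20, adjusted p = 0.0172). Rock2, a kinase of the actin cytoskeleton, was called higher (0.20, adjusted p = 0.0409 by edgeR), and this was lost when knockout-labelled library 1, 2, 3 or 5 or Control 1, 2, 3 or 4 was left out, with adjusted p of up to 0.112 and log2 fold changes of 0.15 to 0.23 over all omissions. Cd69, a lymphocyte protein that binds S1pr1, was at 4.005 ± 2.39 CPM in knockout-labelled libraries and 3.49 ± 1.11 CPM in Controls and was not called (edgeR adjusted p = 0.767).

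Receptors for the related lipid lysophosphatidic acid were included for comparison. Of 7 genes in that list 5 were tested, of which Lpar4 rose and Lpar1 and Lpar6 fell, beside 19.7% called over all genes tested. Lpar4 averaged 8.32 ± 1.03 CPM in knockout-labelled libraries and 4.99 ± 1.20 CPM in Controls (log2 fold change 0.74 ± 0.163 SE, edgeR adjusted p = 0.0069). Lpar1 averaged 1.08 ± 0.215 CPM in knockout-labelled libraries and 1.99 ± 0.438 CPM in Controls (log2 fold change -0.87 ± 0.211 SE, edgeR adjusted p = 0.0111), and its call was lost without Controls 4 and 5 (-0.66, adjusted p = 0.0954). Lpar6 was at 155 ± 23.3 CPM in knockout-labelled libraries and 199.7 ± 22.9 CPM in Controls (log2 fold change -0.37, edgeR adjusted p = 0.0313), and its call was lost when knockout-labelled library 1, 4 or 5 or Control 1, 4 or 5 was left out, with adjusted p of up to 0.0725 and log2 fold changes of -0.45 to -0.30 over all omissions. Lpar3 and Lpar5 did not pass the filter, and the autotaxin gene Enpp2 and Lpar2 were not called.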

How the data were processed

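Libraries of mouse liver endothelial cells were sequenced on a BGISeq-500, per the labels' protocols. The submitters' processing notes name Trim Galore 0.6.4, kallisto 0.4.6 and GRCm38.p6. The authors deposited, for each library and gene, expected counts (kallisto estimates, not always whole) and TPM, which is relative to transcript length and library total. How transcripts were summed to genes is not given in the sources used here. Of 55385 listed genes 55144 matched a GENCODE M21 symbol, and coordinates come from that annotation.

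Expected counts were rounded for edgeR 4.0.16 (R 4.3.3) with filterByExpr at a minimum count of 10, TMM factors of 0.94 to 1.04, a robust quasi-likelihood fit on genotype alone and Benjamini-Hochberg adjustment over 15043 genes (threshold 0.05). Those genes held 99.87 to 99.9% of the counts. CPM are TMM-scaled, with a prior count of 2 on the log2 scale. Relative transcript length (count over TPM, log2, centred on the library's median gene, at least 10 counts in every library) was tested with limma 3.58.1. DESeq2 1.42.0, other scalings and filters, length offsets and omitted libraries were alternatives. Exact permutation tests covered every assignment of the libraries. The procedure was tested on simulated counts.

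Libraries of a group differed by more than sampling noise (chi-square per degree of freedom 11.41 to 32.6), so all 10 were kept apart. With this depth counting error is large for genes at a few CPM or less, such as S1pr3, Sphk1, S1pr5, Sgpp2, Degs2, Lpar1 and Apom. Exons of S1pr3, Sphk1, Sphk2 and Spns2 overlap genes on the other strand (Gm32834, Gm29292, Dbp and Rpl18, and Mybbp1a), by up to 45, 192, 539 and 131 bases, and no strand setting is stated, so reads there cannot be told apart.

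The members and lists were chosen with earlier results of these data known, as was the omission of Controls 4 and 5. Named genes are the members, Acvrl1, up to 6 called genes per list by smallest p (or the 2 with the smallest p where fewer than 2 were called), list genes under the filter, and for each member the 3 tested genes, predicted genes aside, averaging 10 CPM or more with the smallest root mean square difference of centred log2 CPM. Any other gene was chosen after its values were seen. A gene that the rule takes is not reported here.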

Additional observations from a re-analysis of the deposited data

Results flagged for a closer look

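In 130 groups of 5 libraries, 9 had a library far from the others by Dixon's ratio, where chance gives about 1 in 20. Among the members, S1pr3 in Control 1 was at 3.447 CPM, with the other Controls at 1.61 to 2.09 CPM, and Spns2 in knockout-labelled library 1 was at 121.5 CPM, with the others of its group at 138 to 143.5 CPM. The relative transcript length of S1pr2 in Control 1 was 2.325, with the other Controls at 2.63 to 2.71, and that of Sphk1 in knockout-labelled library 5 was 0.719, with the others of its group at 0.580 to 0.612. S1pr5 in knockout-labelled library 2 was at 3.081 CPM, with 1.06 to 1.34 CPM in the others of its group. Rock2 in Control 4 was at 65.69 CPM, with the other Controls at 76.3 to 79.7 CPM.

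Genes with patterns near a member also gave such libraries. Control 3 was low for Rarb, at 42.04 CPM with the other Controls at 76.1 to 84.2 CPM. Arfip1 was at 69.29 CPM in knockout-labelled library 1, with the others of its group at 79.1 to 82.1 CPM. Baz1a was at 32.41 CPM in knockout-labelled library 3, with the others of its group at 38.5 to 40.9 CPM.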

How the results depend on the processing

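S1pr1, Sphk1 and Spns2 kept their direction and call in all 20 alternatives, and Sphk2 and Sgpl1 were called in none. The S1pr2 call was lost with library size alone (log2 fold change -0.27), with no filter (-0.33) and without Controls 4 and 5 (-0.265), and its sign turned with limma on log2(TPM + 1) (0.105), limma on log2(TPM + 0.1) (0.135) and transcript length offsets (0.078), all of which divide by transcript length. Leaving out each library gave -0.38 to -0.28. S1pr3 was called with no filter (-0.96) and DESeq2 (-0.95), and leaving out each library gave -1.085 to -0.71. The members called lower were 2, and 1 with library size alone, with both limma fits, with length offsets and without Controls 4 and 5, 1 to 2 when a library was left out, and 3 with DESeq2. Over all genes 1593 were higher and 1366 lower, with 1968 and 1024 by library size alone. The lower calls were 685 and 687 with limma on TPM, at pseudocounts of 1 and 0.1 (1840 and 1820 higher), and 866 without Controls 4 and 5, which leaves fewer samples, and 1021 to 1357 when a library was left out. Of other pathway genes 13 were called lower, and 6 with either limma fit, where the calls of Cers2, Cers4, Gnaq, Lpar6, Ormdl1, Sptlc2 and Sptssa were lost. With transcript length offsets in edgeR 13 were called lower, these genes among them. The limma fits took TPM without TMM factors. S1pr5, not called, lay between -0.11 (without knockout-labelled library 2) and 0.67 when a library was left out. The S1pr2 share of receptor signal differed by -0.71 percentage points, and by -1.88 when counts replaced TPM. The cause of the other shifts was not tested.

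Samples with the same replicate number deviated together weakly (r from -0.20 to 0.35, with 2 of 5 closest to their own number). Such values cannot settle whether the numbers pair the samples, and the main fit did not use the numbers. With a replicate block 1432 genes were higher and 1135 lower, S1pr2 and Cers2 were not called (-0.32 and -0.18, adjusted p = 0.119 and 0.0526) and S1pr3 was called (-0.97, adjusted p = 0.0364). Among the members depth most limits S1pr3 and Sphk1, with at most 82 counts in a library. It also limits other genes at a few CPM or less, such as Sgpp2, Lpar1 and Degs2.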
